A study of Mus musculus with 8 samples.

Results

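The ephrin, Slit and netrin guidance genes were read in primary cultures of mouse cerebellar cells, with or without addition of the thyroid hormone T3. Members were taken by gene symbol, as the Eph receptors, their ephrin ligands, the Slit ligands and Robo receptors, the netrins and netrin-Gs, the Unc5 receptors, Dcc, Neo1 and Draxin, wherever a probe-set of the array (a group of short probes read as 1 value) named a single gene. This gave 41 genes on 86 probe-sets, out of 18193 genes on the array. Each gene was read by its brightest probe-set, and 24 of the 41 lay above a filter set at the 60th percentile of the mean log2 signal of all probe-sets, beside 56% of all genes.

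Guidance molecules steer growing axons and migrating neurons by attraction or repulsion. Ephrins are ligands held on the cell surface, where they meet Eph receptor tyrosine kinases on neighbouring cells. Slits are secreted and repel through Robo receptors, whereas netrins are secreted or laid down in the matrix, attract through Dcc and neogenin (Neo1) and repel where Unc5 receptors take part. Draxin is a secreted repellent that binds Dcc and netrins. In the developing cerebellum, Unc5c, netrin and Slit signals are known to shape the paths of granule cell precursors and of neurons that leave the rhombic lip.

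The cultures came from the pooled cerebella of wild-type newborn mice, given as P4-P7 pups in the sample labels and as P1-P4 pups in the study's methods. Cells were grown in serum-free neuronal medium for 48 h. They were then either given T3 at 0.1 µM or put through the same medium change without added T3, and RNA was taken 6, 16, 24 or 48 h later. Each of the 8 conditions was 1 culture on 1 array, and the T3 and untreated cultures of a time point shared a batch of cells, so the 4 time points are the only replicates of the T3 difference. Whether the time points also shared a batch is not given in the sources used here, and a change with the hours cannot be told apart from a difference between such batches.

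The untreated 24 h array stood apart from the other 7 in markers of other cell types. Over 14 markers of astrocytes and Bergmann glia, 13 of them above the filter, the summed signal was 10759 on this array and 3391 to 6388 on the others. Of the 14, 9 had their highest signal there, among them the astrocyte water channel Aqp4 (1053.9, and 16.8 to 76.8 elsewhere), whereas Gja1, Gjb6, Gdf10, Hopx and Sox9 did not. Over 7 Purkinje cell markers the sum was 2472 against 684 to 1933, and over 9 oligodendrocyte lineage markers it was 2500 against 900 to 1292. Only 3 of these 7 (Calb1, Car8 and Pcp4) and 3 of these 9 (Olig1, Mbp and Cnp) had their highest signal there. Pcp2, Foxp2 and Rora peaked on other arrays, and Pdgfra had its lowest signal on this one (242.4). Over 7 GABAergic interneuron markers the sum was 814 against 92 to 729, and 6 of them, all but Lhx1, were highest there. Over 3 unipolar brush cell markers it was 1055 against 252 to 565, and 2 of them were highest there. Only 2 markers of each of these last lists were above the filter. The hours also moved with cell type markers: 9 of 11 kept markers of granule cell precursors fell and 8 of 12 kept vascular and meningeal markers rose (limma), beside 8.96% of all genes falling and 12.4% rising. When the time point was taken as a random block, 0 of the 11 and 5 of the 12 passed. In these mixed cultures, fewer cells of a type and less RNA per cell cannot be told apart.

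The promoters of 4 members that the results below turn on are shown for reference, Slit2 and Slit3 for their change with the hours, and Draxin and Ntn4 for their large difference at 24 h. Each is the stretch of 250 bases upstream of the annotated start (RefSeq, build GRCm38.p6), written 5′ to 3′ along the gene, with capitals for the T3 receptor half-site AGGTCA on either strand.
Slit2, chr5:47982905-47983154, plus strand: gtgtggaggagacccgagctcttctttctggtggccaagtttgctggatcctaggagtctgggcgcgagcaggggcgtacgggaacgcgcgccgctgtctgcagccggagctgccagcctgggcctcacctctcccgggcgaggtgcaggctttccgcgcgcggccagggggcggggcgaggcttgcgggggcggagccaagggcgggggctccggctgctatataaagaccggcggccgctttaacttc
Slit3, chr11:35121206-35121455, plus strand: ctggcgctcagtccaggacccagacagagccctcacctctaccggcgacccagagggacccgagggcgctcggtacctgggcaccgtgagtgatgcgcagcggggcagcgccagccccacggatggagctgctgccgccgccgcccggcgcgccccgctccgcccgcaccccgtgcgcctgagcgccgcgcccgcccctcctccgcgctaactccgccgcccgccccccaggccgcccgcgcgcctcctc
Draxin, chr4:148130699-148130948, minus strand: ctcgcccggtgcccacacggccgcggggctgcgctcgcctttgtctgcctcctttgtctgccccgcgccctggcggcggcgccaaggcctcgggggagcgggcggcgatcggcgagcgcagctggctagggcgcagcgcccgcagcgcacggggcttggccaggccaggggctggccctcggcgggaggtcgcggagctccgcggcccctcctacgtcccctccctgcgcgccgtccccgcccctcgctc
Ntn4, chr10:93640799-93641048, plus strand: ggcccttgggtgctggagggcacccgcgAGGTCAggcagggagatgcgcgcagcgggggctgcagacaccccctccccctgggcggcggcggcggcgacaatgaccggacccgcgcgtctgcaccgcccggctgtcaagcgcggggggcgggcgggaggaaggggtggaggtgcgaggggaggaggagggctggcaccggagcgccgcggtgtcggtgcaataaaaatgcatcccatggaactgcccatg
Of these 4 stretches, that of Ntn4 held the half-site, once. In windows of 300 bases that run on past the start, AGGTCA or its reverse complement occurred in 4 of 41 windows of 36 members (9.76%), those of Epha2, Ntn4, Ntn5 and Robo4, and in 16.3% of all 32851 windows. The direct repeat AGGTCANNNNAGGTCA was in no member window and in 0.0152% of all windows. The member windows were rich in G and C, with a median of 64.7% against 52.7% over all windows. Efnb3, Slit1, Ntn1, Unc5d and Dcc had no window here.

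**Figure D1:**
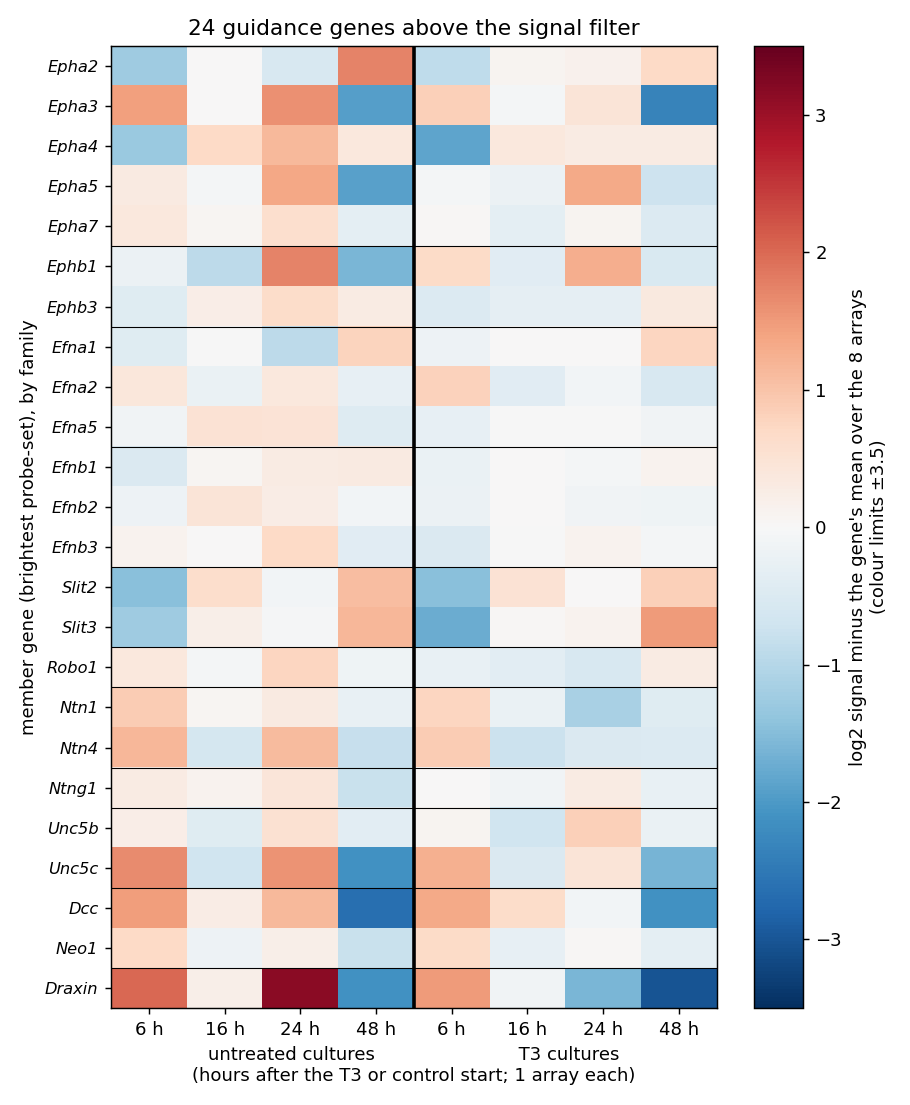
Log2 signal of the 24 members above the filter (rows, in family order) on each of the 8 arrays (columns, untreated left and T3 right), as the difference from the gene's own mean over the arrays. The Slit2 and Slit3 rows turn from blue at 6 h to red at 48 h under both treatments, the Dcc, Unc5c and Draxin rows run the other way, and 10 of the 24 rows reach their highest signal on the untreated 24 h array.

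The first comparison asked how the guidance genes changed over the hours of culture, with the treatment as a covariate. Both Slit ligands above the filter and the receptor Epha2 rose, while the netrin receptors Dcc and Neo1 fell. These were 3 rising and 2 falling members among 24 (limma, adjusted p under 0.05), beside 12.4% of all 10194 genes above the filter that rose and 8.96% that fell, so that the share of members called was close to that of all genes. The median slope of the 24 members was -0.11 log2 units per doubling of the hours, against -0.01 over all genes. Slit3 and Epha2 had mean log2 signals of 5.11 and 5.20 against 4.95 at the filter, which they cleared only through their 48 h arrays. With no filter on low signals, Slit3 passed and Epha2 did not. The fit over the hours counts the paired arrays of a time point as independent. With a random block for the time point, Slit2 and Slit3 passed and no falling member did, beside 2.09% of all genes rising and 0.500% falling.

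Slit2, a secreted repellent for axons and migrating neurons, gave an untreated signal of 73.4 at 6 h, 307.8 at 16 h, 188.0 at 24 h and 430.1 at 48 h. With T3 it was 72.9, 288.0, 205.0 and 363.1 at the same hours. The 6 h arrays were the lowest and the 48 h arrays the highest under both treatments, and the T3 and untreated values of a time point lay close together. The slope was 0.76 ± 0.15 per doubling of the hours (SE, n = 8 arrays, limma adjusted p = 0.0164, and 0.0492 with that random block). Slit3, a second ligand of the family, read 14.6, 39.8, 33.6 and 76.5 in untreated cultures from 6 to 48 h. With T3 it read 10.4, 35.2, 37.9 and 96.5. Its slope was 0.89 ± 0.12 (SE, n = 8, limma adjusted p = 0.00824, and 0.0468 with the random block). With 32 added to every signal, which damps values as low as its 6 h ones, the slope was 0.44, and that of Slit2 was 0.63. The third ligand, Slit1, stayed under the filter at 10.0 to 21.5 on all arrays.

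Beside this rise, the summed signal of 13 vascular and meningeal markers went from 2715 at 6 h to 16609 at 48 h in untreated cultures and from 2230 to 15816 with T3. Of the 12 kept markers, 8 rose in the same limma fit and 5 with the random block. Cldn5, Kdr, Cdh5 and Rgs5 did not pass in either, with slopes of -0.09, 0.14, 0.44 and 0.06, and Pecam1 was under the filter. The part of these markers in the rise of the Slits was not tested. Robo1, the only Robo receptor above the filter, showed no such trend, with a slope of 0.02 ± 0.13 (SE, n = 8, limma adjusted p = 0.934). Its untreated signal was 118.3, 87.6, 156.1 and 82.4 from 6 to 48 h. With T3 it was 76.9, 71.3, 62.2 and 111.5. The T3 value was the lower of the pair at 6, 16 and 24 h and the higher at 48 h, and at 24 h the untreated array was the highest of all 8 and the T3 array the lowest. Robo2, Robo3 and Robo4 were under the filter, although Robo4, the endothelial member of the family, reached 58.9 on its highest array.

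**Figure D2:**
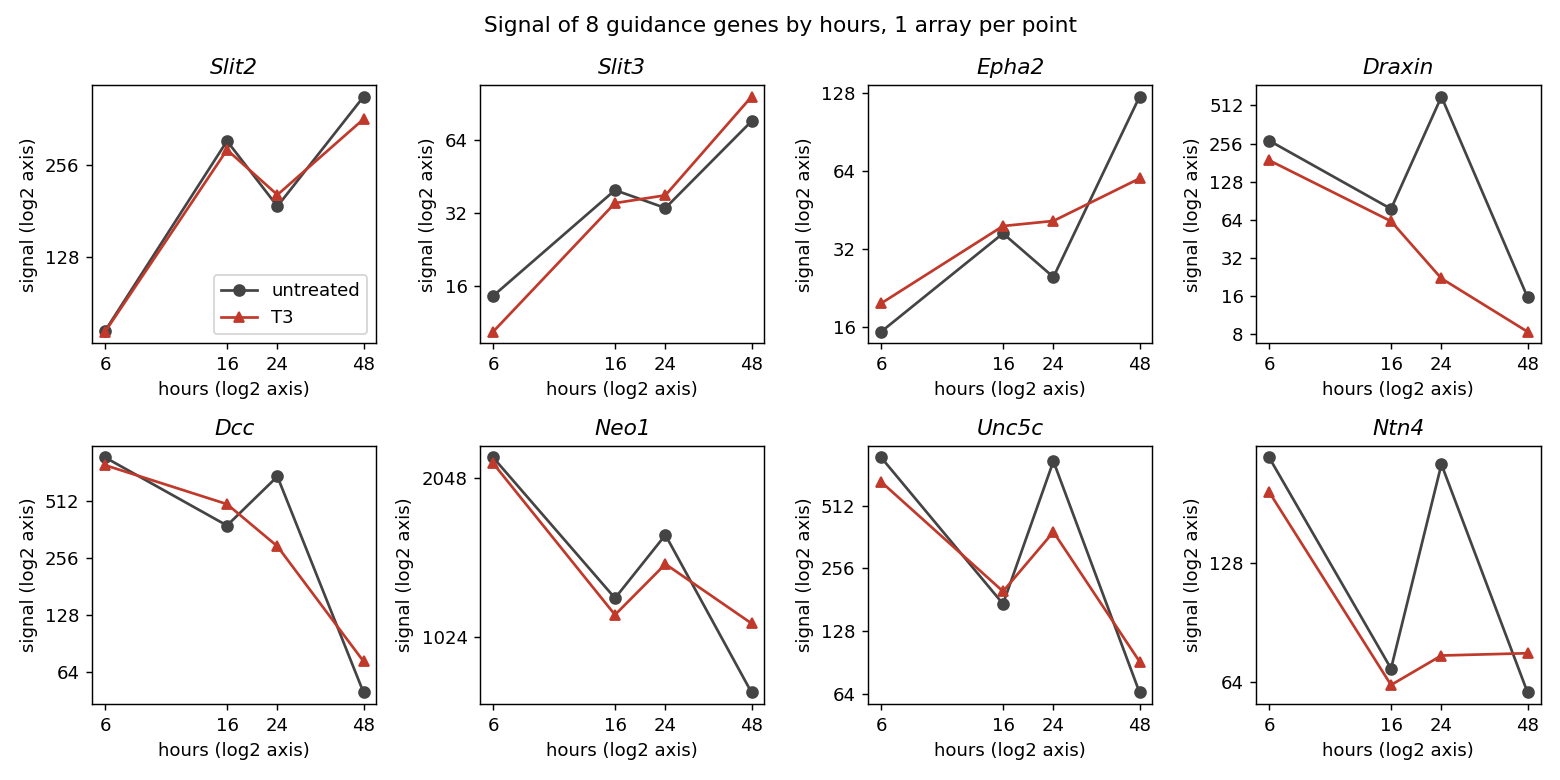
Signal of 8 members against the hours, both on log2 axes, with dark circles for untreated and red triangles for T3 cultures, 1 array per point. Slit2, Slit3 and Epha2 are lowest at 6 h and highest at 48 h, Dcc, Neo1 and Unc5c are highest at 6 h, and the untreated 24 h point of Draxin (600.1) and Ntn4 (228.0) leaves the line of its neighbours.

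Among the netrin receptors, Dcc, the attractive receptor, had the steepest slope of the members that passed. Untreated cultures gave 869.9 at 6 h, 380.5 at 16 h, 690.4 at 24 h and 50.1 at 48 h. The T3 cultures gave 791.8, 493.4, 295.7 and 73.1. The 48 h arrays were far below all others under both treatments. The slope was -1.16 ± 0.25 (SE, n = 8, limma adjusted p = 0.0218, and 0.0752 with the random block), and a second Dcc probe-set above the filter had a slope of -1.15. Neo1, the neogenin receptor shared by netrins and repulsive guidance molecules, fell by less, with untreated signals of 2237.5, 1213.8, 1597.5 and 805.5 from 6 to 48 h. With T3 its signals were 2181.5, 1128.9, 1407.6 and 1087.5. The 6 h arrays were the highest and the 48 h arrays the lowest of each treatment. Its slope was -0.38 ± 0.08 (SE, n = 8, limma adjusted p = 0.0235, and 0.0868 with the random block). Of the 2 other Neo1 probe-sets above the filter, 1 did not pass (-0.38, limma adjusted p = 0.0523) and 1 did (-0.62, 0.0272).

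Unc5c, a repulsive netrin receptor whose loss misplaces granule cells, had untreated signals of 875.6, 172.9, 839.6 and 64.8 from 6 to 48 h. Its T3 signals were 668.2, 198.6, 383.6 and 91.3. Both 24 h arrays were above both 16 h arrays, so the course was not steady, and the slope of -0.94 ± 0.30 did not pass (SE, n = 8, limma adjusted p = 0.0606). A second Unc5c probe-set did pass, with a slope of -0.82 (limma adjusted p = 0.021), as did the mean of the Unc5c probe-sets (-0.88, 0.0369). Unc5b, which also serves in vessels, ranged from 178.4 to 516.1, with a slope of -0.06 ± 0.16. Unc5a and Unc5d were under the filter. Of the ligands, Ntn1, the classical netrin, read 207.4, 118.6, 141.2 and 95.2 in untreated cultures and 190.6, 96.6, 51.8 and 84.7 with T3. The 6 h arrays were the highest of the 8, and the slope was -0.41 ± 0.13 (SE, n = 8, limma adjusted p = 0.0561). Ntn4, a netrin of basement membranes, read 237.3, 69.3, 228.0 and 60.3 in untreated cultures and 194.0, 63.0, 74.8 and 75.8 with T3. Its slope was -0.49 ± 0.20 (SE, n = 8, limma adjusted p = 0.122), with the untreated 24 h array at the level of the 6 h arrays. Ntn3 and Ntn5 were under the filter.

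Draxin had a slope of -1.29 ± 0.39, without passing (SE, n = 8, limma adjusted p = 0.0546), and one of -0.74 with 32 added to every signal. Its T3 signals ran downwards at every step, from 189.0 at 6 h to 62.5, 22.1 and 8.4 at 48 h. The untreated signals were 270.3, 78.2, 600.1 and 15.7, so that the same course was broken by the 24 h array, the highest of the 8. Beside these falling slopes, the summed signal of 9 markers of differentiated granule neurons went from 6204 at 6 h to 618 at 48 h in untreated cultures and from 6128 to 946 with T3. It was 1877 and 2190 at 16 h and 6087 and 4101 at 24 h, so this sum, like Unc5c, was higher at 24 h than at 16 h. The largest signals in the untreated 6 h sum were those of Neurod1 (2671.7) and Rbfox3 (1613.7). Of the 7 markers above the filter, 3 fell in the limma fit over the hours and 1 with the random block. Gabra6 was under the filter, at 2.7 to 12.3 on the 8 arrays, and its course was not read. The paper reports low early levels of Gabra6, which marks differentiated granule cells, and a rise with time. In untreated cultures, marker sums also rose from 16 to 24 h for granule cell precursors (6459 to 8301) and Purkinje cells (934 to 2472). So did those of GABAergic interneurons (200 to 814) and unipolar brush cells (339 to 1055). With T3, the Purkinje cell (911 to 1000) and unipolar brush cell (393 to 458) sums rose. The precursor (6582 to 6074) and GABAergic interneuron (234 to 187) sums fell. The part of differentiated granule neurons or of these other cell types in the slopes was not tested.

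Of the Eph receptors, Epha2 was called as rising. Its signal in untreated cultures was 15.4, 36.8, 25.0 and 123.6 from 6 to 48 h. With T3 it was 19.8, 39.3, 41.1 and 59.9. The lowest value of each treatment was at 6 h and the highest at 48 h, and the slope was 0.71 ± 0.16 (SE, n = 8, limma adjusted p = 0.0246, and 0.127 with the random block). Epha4, a receptor for ligands of both ephrin classes, read 18.1, 72.8, 97.8 and 57.5 in untreated cultures and 12.5, 58.4, 55.1 and 54.5 with T3. Both 6 h arrays were below the other 6, which showed no further rise, and the slope of 0.67 ± 0.20 did not pass (SE, n = 8, limma adjusted p = 0.0533). It passed after quantile normalization (0.67, limma adjusted p = 0.0497), as did a second Epha4 probe-set (0.62, 0.0485), while the remaining one above the filter had 0.56 (0.0785). Epha3, a receptor for ephrin-A ligands, ran the other way, with 175.9, 66.2, 199.1 and 17.3 in untreated cultures and 116.0, 62.4, 90.1 and 13.0 with T3. The 48 h arrays were the lowest of the 8, and the slope was -0.92 ± 0.29 (SE, n = 8, limma adjusted p = 0.0577). With 32 added to every signal, the slopes were 0.39 for Epha2, 0.32 for Epha4 and -0.53 for Epha3. Of these, Epha2 alone passed (limma adjusted p = 0.0347). Ephb3, a receptor for ephrin-B ligands, kept to a narrow range of 37.9 to 82.3, with 39.5, 61.9, 82.3 and 64.8 in untreated cultures and 37.9, 42.2, 42.6 and 67.1 with T3. Its slope was 0.26 ± 0.10 (SE, n = 8, limma adjusted p = 0.0884).

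No ephrin ligand passed the test. Efna1, an ephrin-A known from vessels and epithelia, read 24.3, 32.2, 17.5 and 56.1 in untreated cultures and 28.8, 33.3, 32.8 and 55.0 with T3. Both 48 h arrays were above the other 6, and the slope was 0.29 ± 0.15 (SE, n = 8, limma adjusted p = 0.188). The 8 members above the filter that are not described array by array were Epha7, Efna2, Efna5, Efnb1, Efnb2, Efnb3, Ntng1 and Unc5b. Their slopes lay between -0.30 and 0.20 and the smallest limma adjusted p among them was 0.0973. All 3 ephrin-B ligands were above the filter, and none passed the test. Efnb2 had the narrowest course of these, at 218.4 to 345.9 over the 8 arrays.

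**Figure D3:**
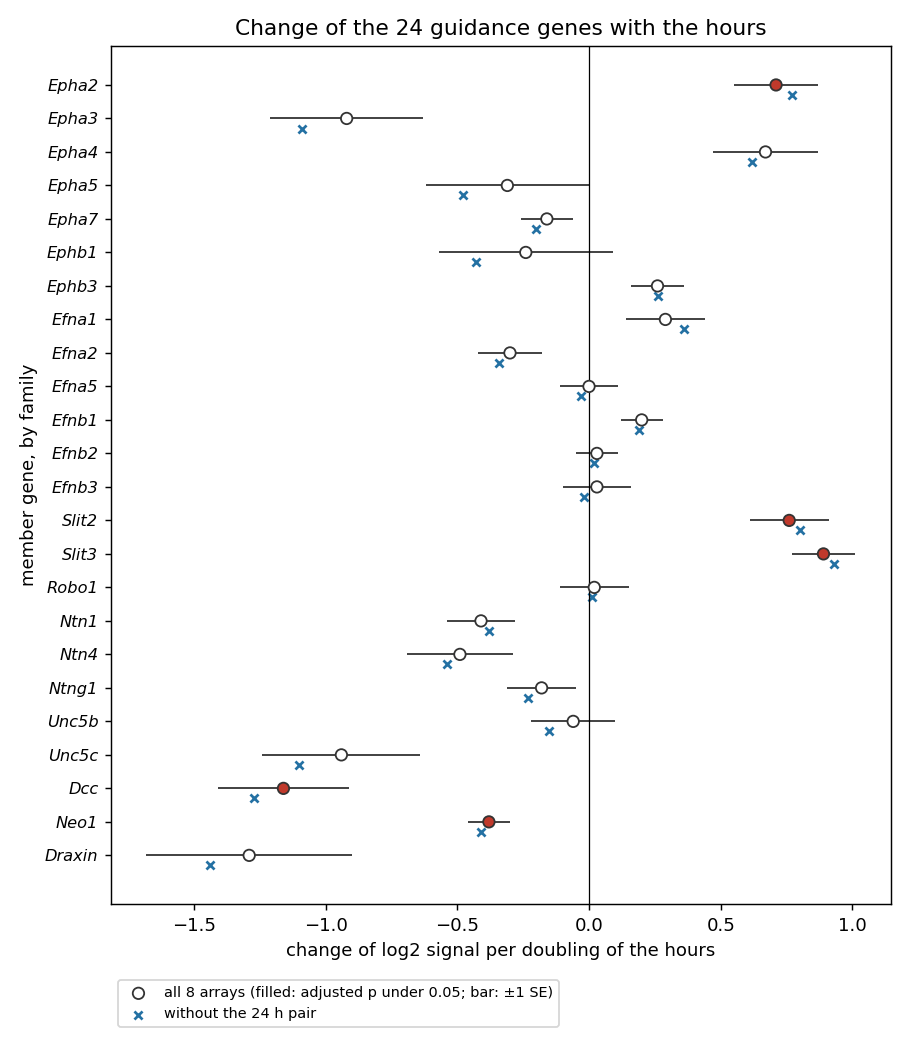
Change of log2 signal per doubling of the hours for each of the 24 members, in family order, from all 8 arrays (circles, with bars of ±1 SE, filled where the limma adjusted p was under 0.05) and from the 6 arrays left without the 24 h pair (blue crosses). The crosses lie near the circles, from Draxin (-1.29 and -1.44) to Slit3 (0.89 and 0.93).

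The 24 h pair weighed on the number of calls more than on the slopes. Without it, 17 of the 24 members passed, 6 rising and 11 falling, beside 22.0% and 24.0% of all genes. Draxin then had a slope of -1.44 (limma adjusted p = 0.00105), Epha3 one of -1.09 (0.00141), Unc5c one of -1.10 (0.0017), Ntn1 one of -0.38 (0.0105) and Ntn4 one of -0.54 (0.0325). Without the 6 h arrays or without the 48 h arrays no member and no other gene passed. The untreated and T3 arrays taken alone gave slopes of the same sign in 21 of 24 members, with no member passing in either. Without the 6 h arrays the slope of Slit2 was 0.34, that of Neo1 -0.25 and that of Dcc -1.91, while Slit3 (0.81) and Epha2 (0.82) were near their values from all arrays. Without the 48 h arrays it was -0.48 for Dcc, 0.50 for Epha2, -0.35 for Neo1, 0.85 for Slit2 and 0.83 for Slit3.

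Known signalling partners of the families were read from lists of their own. Of 12 kept partners of Eph signalling, 2 fell and none rose, namely Chn2, a Rac-inactivating chimaerin (slope -0.78 ± 0.22, limma adjusted p = 0.0472), and Grip1, a scaffold that binds ephrin-B (-0.48 ± 0.12, 0.0334). Of 12 kept Slit and Robo partners, the Rac regulator Srgap2 (-0.55 ± 0.15, limma adjusted p = 0.0422) and the kinase Abl2 (-0.22 ± 0.07, 0.048) fell. Of 12 kept netrin and Unc5 partners, 2 rose and 3 fell. The falling ones were Siah1a, a ubiquitin ligase that acts on Dcc (-0.21 ± 0.06), Flrt3, a ligand of Unc5 receptors (-0.37 ± 0.10), and Dapk1, a death kinase downstream of Unc5b (-0.31 ± 0.08), with limma adjusted p of 0.0471, 0.0376 and 0.0304. The rising ones were Flrt2, another Unc5 ligand (0.50 ± 0.06, limma adjusted p = 0.00798) and Ablim1, an actin-binding protein (0.52 ± 0.13, limma adjusted p = 0.0291). The median slopes of the 3 lists were -0.10, -0.02 and -0.00, against -0.01 over all genes. When the time point was taken as a random block, Flrt2 passed (limma adjusted p = 0.044) and the other 8 partners did not, with adjusted p of 0.233 for Chn2, 0.103 for Grip1, 0.116 for Srgap2, 0.17 for Abl2, 0.177 for Siah1a, 0.112 for Flrt3, 0.136 for Dapk1 and 0.0938 for Ablim1. The shares of all genes are those given above for the same fits.

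The second comparison asked what T3 did to the same genes, each T3 array set against the untreated array of its time point. No member passed over the 4 pairs, nor did any other gene, so the share called was 0.00% (limma with the time point as a block, smallest adjusted p of a member 0.815). Klf9, Dbp, Spata13 and Gbp3, which the paper found raised by T3 in Q-RT-PCR, did not pass either. The log2 differences of Klf9 were 1.35, 0.86, 1.34 and 0.6 from 6 to 48 h. Those of Dbp were 1.53, 1.45, 1.39 and 0.97. The lack of a call therefore does not show that T3 left a gene unchanged. Without adjustment, 4 of the 24 members had a p under 0.05. No member showed a T3 difference that changed steadily with the hours either (limma, 0.00% of all genes called, 1 of 24 members with an unadjusted p under 0.05). The median T3 difference of the members was -0.16 on the log2 scale, against 0.00 over all genes, and -0.11 without the 24 h pair.

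In 6 members the T3 array was below the untreated array in 4 of 4 pairs, beside 7.92% of all genes. They were the receptors Epha3, Epha4 and Epha7 and the ligands Efnb2, Ntn1 and Draxin. The count rests on the brightest probe-set. The other probe-sets above the filter did not keep it, being higher with T3 at 16 h in Epha3 (0.07) and Efnb2 (0.03), at 48 h in Epha7 (0.07), and at 6, 16 and 48 h in one of Epha4 (1.07, 0.19 and 0.36). No member was higher in 4 of 4, beside 6.91% of all genes. The log2 differences of Epha3 were -0.60, -0.09, -1.14 and -0.41 from 6 to 48 h, and those of Epha7, a receptor for ephrin-A ligands, were -0.33, -0.42, -0.49 and -0.14. Over the pairs the mean difference was -0.56 ± 0.19 for Epha3, -0.44 ± 0.18 for Epha4 and -0.34 ± 0.13 for Epha7 (SE, n = 4 pairs, limma adjusted p = 0.815 for each). Other probe-sets above the filter gave -0.64 for Epha3, 0.24 and -0.11 for Epha4 and -0.07 for Epha7. None of the 3 thus differed beyond the spread between pairs once all genes were taken into account.

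**Figure D4:**
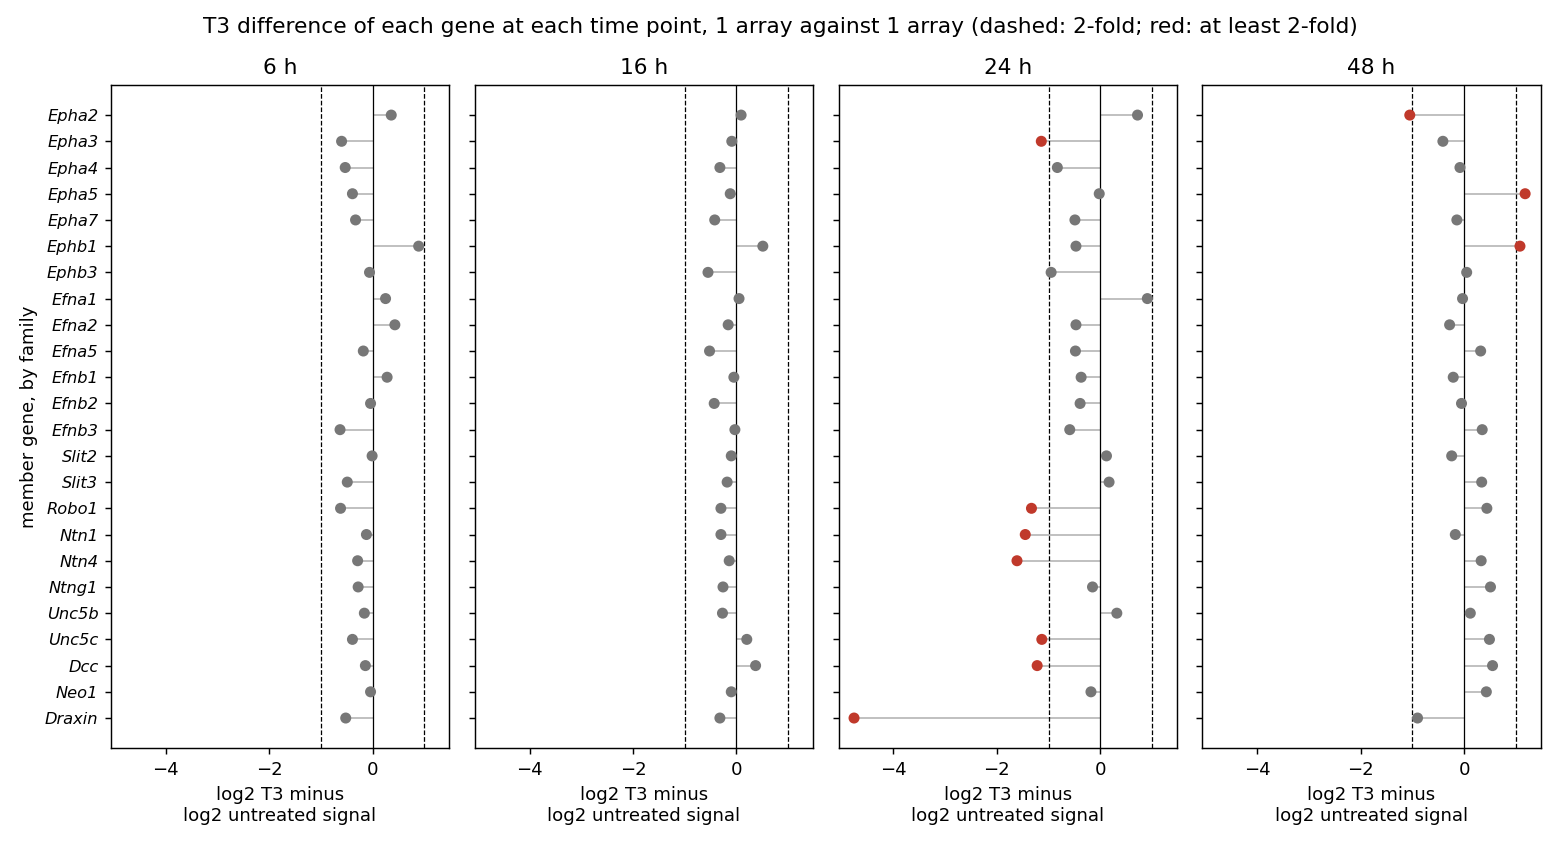
Difference between log2 T3 and log2 untreated signal for each of the 24 members (rows) at each time point (panels), 1 array against 1 array, with dashed lines at 2-fold and red points at or beyond them. No point is red at 6 or 16 h, 7 are red on the low side at 24 h, with Draxin at -4.76, and at 48 h Epha5 and Ephb1 are red on the high side and Epha2 on the low side.

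At single time points there is 1 array on each side and no test. At 6 h and at 16 h no member above the filter differed by 2-fold, beside 0.432% of all genes higher and 0.314% lower at 6 h and 0.422% and 0.245% at 16 h. At 24 h, 7 of the 24 were at least 2-fold lower with T3, beside 5.85% of all genes, and none was 2-fold higher, beside 2.83%. The 7 were Draxin, Ntn4, Ntn1, Robo1, Dcc, Epha3 and Unc5c. Draxin read 22.1 with T3 against 600.1, a log2 difference of -4.76, or -3.55 with 32 added to every signal, and its T3 value lay under the filter level of 31. Ntn4 was 3.05-fold lower with T3 (74.8 against 228.0) and Ntn1 2.73-fold (51.8 against 141.2). The others were 2.51-fold (Robo1), 2.33-fold (Dcc), 2.21-fold (Epha3) and 2.19-fold (Unc5c) lower. With 32 added, Epha3 and Robo1 no longer reached 2-fold, and on the mean of all probe-sets of a gene, dim ones included, Draxin and Unc5c of the 7 did, joined by Efna5 and Epha4. A second probe-set above the filter gave log2 differences at 24 h of -1.10 for Dcc, -1.16 for Epha3 and -0.89 for Unc5c, where the main ones gave -1.22, -1.14 and -1.13. The second probe-set of Draxin was under the filter, at 0.7 to 8.9 on the 8 arrays.

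In Draxin and Ntn4 the untreated array was the one that left its neighbours in time. Draxin at 600.1 was above all other arrays, the nearest being 270.3 at 6 h, and its T3 value of 22.1 lay between those at 16 and 48 h. Ntn4 at 228.0 was near its 6 h values of 237.3 and 194.0, whereas the T3 value of 74.8 was near the 4 arrays of 16 and 48 h, at 60.3 to 75.8. Ntn1 differed from this, since its T3 value of 51.8 was the lowest of the 8 arrays. Of the 24 members, 10 had their highest signal of all on the untreated 24 h array, beside 18.9% of all genes, a count chosen after the values were seen. The glial, Purkinje cell, oligodendrocyte, GABAergic interneuron and unipolar brush cell marker sums given above were also highest on that array. Their part in the 24 h differences was not tested. Over the other 3 pairs, the mean T3 difference was -0.58 for Draxin, -0.03 for Ntn4, -0.20 for Ntn1, -0.16 for Robo1, -0.37 for Epha3, 0.10 for Unc5c and 0.26 for Dcc, so that those of Unc5c and Dcc changed sign without the 24 h pair.

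At 48 h, 2 members were at least 2-fold higher with T3, beside 0.755% of all genes, and 1 was lower, beside 0.373%. Epha5, a receptor for ephrin-A ligands in neurons, read 26.2 with T3 and 11.6 without at 48 h, a 2.26-fold difference. At 6, 16 and 24 h it read 41.1, 38.0 and 108.8 with T3 and 53.8, 41.2 and 110.7 without, so that T3 was the lower of the pair at these 3 hours. Ephb1, a receptor for ephrin-B ligands, was higher with T3 at 6 h (138.2 against 74.7), at 16 h (65.8 against 46.2) and at 48 h (60.1 against 28.5), and lower at 24 h (207.5 against 287.8). Its mean difference was 0.50 ± 0.25 over all pairs (SE, n = 4, limma adjusted p = 0.815) and 0.82 without the 24 h pair. Epha2 read 59.9 with T3 and 123.6 without at 48 h, 2.06-fold lower, while the T3 array was the higher at the other 3 hours. With 32 added to every signal, none of these 3 reached 2-fold.

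Slit2, Slit3 and Neo1, called in the first comparison, stayed within 2-fold between treatments at every hour. Their log2 differences ran from -0.24 to 0.12 in Slit2, from -0.49 to 0.34 in Slit3 and from -0.18 to 0.43 in Neo1. Among the partners, Chn2 was lower with T3 at 24 h (28.9 against 172.9), as was Srgap3, a Robo-binding Rac regulator (135.7 against 390.3), and Rgmb, a Neo1 ligand (53.3 against 132.8). Siah2, a ubiquitin ligase related to Siah1a, was higher there (282.9 against 107.1). These were the partners above the filter at or beyond 2-fold at 24 h, and none above the filter was at 6, 16 or 48 h. Partners under the filter were not read for such differences. They make 1 of 12 kept lower in each list, beside 5.85% of all genes, and 1 of 12 higher in the netrin list, beside 2.83%. With 1 such gene per list, these counts are not read as a result about the partners.

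The 17 members under the filter had signals between 0.6 and 58.9. They were the Eph receptors Epha1, Epha6, Epha8, Epha10, Ephb4 and Ephb6, the ephrins Efna3 and Efna4, Slit1, the receptors Robo2, Robo3, Robo4, Unc5a and Unc5d, and the netrin family members Ntn3, Ntn5 and Ntng2. In 12 of them every array was under 31, the signal at which the filter lies. A 2-fold difference between such values was not read as a change in these members. The same limit bears in part on members above the filter. Signals of Draxin at 48 h and with T3 at 24 h lay below 31. So did both signals of Epha5 at 48 h (26.2 and 11.6) and the untreated one of Ephb1 (28.5), which are counted above as 2-fold differences.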

How the data were processed

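Total RNA of 8 cultures was amplified and hybridised to Affymetrix Mouse Genome 430 2.0 arrays, 1 per condition. The authors deposited MAS5 signals from the GCOS software, linear intensity values already scaled to a common trimmed mean of 100, with no genome build involved. Genes were named from GEO's platform annotation, in which 34945 of 45037 probe-sets had 1 gene symbol, 932 several and 9160 none. All 41 member symbols matched RefSeq. Signals below 1 were set to 1 and log2 values taken, and 18015 probe-sets with a mean log2 of at least 4.95 were fitted with limma 3.58.1 in R 4.3.3, with a variance trend and Benjamini-Hochberg adjustment over all of them, tested at 0.05, two-sided. The T3 fit held the time point as a block, because each pair shared a cell batch, and pairs also deviated together (correlations of 0.905, 0.713, 0.520 and 0.878 from 6 to 48 h). The other fits took the slope on log2 hours with treatment as covariate, and the slope of the paired difference. Members passing a fit, kept members beyond 2-fold at a time point, the 6 highest and 6 lowest slopes, Draxin and Dcc are given array by array. The members, partner lists and marker lists were chosen with earlier results of these data known. The fits were tested on simulated data with independent arrays. Such data cannot show how the correlation within pairs affects the fit over the hours. Settings varied were the normalization, an added signal of 32, the filter, the variance trend, probe-set averaging, blocking, and leaving out each time point. The number of arrays limits the precision, and p-values measure only the spread between these cultures.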

Additional observations from a re-analysis of the deposited data

How the results depend on the processing

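The number of members that passed the test over the hours was 5 and depended on the setting. It was 2 with a random block for the time point (Slit2 and Slit3), 2 with no filter on low signals, 3 with the filter at the 75th percentile, which left 9 members, and 0 on the means of each time point, on the untreated arrays alone and on the T3 arrays alone, the last a setting added after the data were seen. With unadjusted p under 0.05, 8, 5 and 10 of the 24 members did so in these last 3 limma fits, which rest on 4 values each. Leaving out 1 time point gave 0 to 17 members, with 17 without the 24 h arrays and 0 without the 6 h or the 48 h arrays. The other 5 settings gave 4 to 6. Both T3 fits called 0 members under every setting run. Without the replicate block, the T3 fit also called 0 members, and none had an unadjusted p under 0.05 in limma, against 4 with the block.

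At 6 h, 1 member (Ephb1) lay beyond 1.6-fold, 1 (Efna1) beyond 2-fold on probe-set means, and 3 when members under the filter were counted, against 0. At 16 h, the latter settings gave 2 and 3. At 24 h, 11 lay beyond 1.6-fold and 2 (Draxin and Ntn4) beyond 3-fold, with 4 on probe-set means (Draxin, Unc5c, Efna5 and Epha4), 5 with 32 added (without Epha3 and Robo1) and 12 with all members, against 7. At 48 h, 0 remained at 3-fold and 0 with 32 added, and 9 with all members, against 3. Quantile normalization also gave 3 there, 1 higher and 2 lower, with Draxin in place of Ephb1. Probe-set means gave 4 (Dcc, Efna5, Epha2 and Ephb1), 3 higher and 1 lower.

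None of the slopes of the 5 members called on all 8 arrays changed sign. The T3 differences, none of which passed, ranged over the fits that left out 1 time point from -0.33 to 0.26 for Dcc, -0.20 to 0.39 for Epha2 (-0.06 with 32 added), -0.18 to 0.34 for Epha5 and -0.44 to 0.10 for Unc5c. Slopes not called on all 8 arrays ranged likewise from -0.02 to 0.56 for Efna1, -0.17 to 1.21 for Epha4, -0.95 to 0.47 for Epha5, -0.51 to 0.40 for Ephb1 and -0.02 to 0.15 for Robo1 (-0.10 on the untreated arrays alone), although those of Efna1, Epha4, Epha5 and Ephb1 passed without the 24 h arrays. The cause of these shifts was not tested. Array number and signals near the filter, as in Slit3, Epha2 and Efna1, limit what can be read.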
